A study of Mus musculus with 6 samples.

Results

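The genes described here are 44 cell cycle and DNA replication genes, a list of names of S phase, mitosis and G1 cyclin genes whose rule uses no measured value. All 44 were found among the 37991 gene identifiers of the count table. All 44 also passed the filter on low counts and were among the 19480 genes tested.

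Bone endothelial cells (BECs) line the blood vessels of bone. The study sequenced RNA of purified BECs, as the labels name them, from female and male mice to look for sex differences, and the libraries used here are those of 12-week-old mice, 3 from females (female replicates 1 to 3) and 3 from males (male replicates 1 to 3). All 6 samples have the strain label c57/Bl6 and carry no transgene or treatment in their labels. They are described as taken freshly from the tibia, while the paper's isolation method names tibiae and femurs. The cells were enriched by their expression of endomucin, a surface glycoprotein of capillary and venous endothelium. According to the study's methods, the samples of best RNA quality in each set were kept for sequencing. The labels do not say whether a library came from 1 mouse or from several, so the p-values below measure the spread between these libraries, which may in part be technical.

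A cell that divides passes through G1, copies its DNA in S phase and separates the copies in mitosis. Cyclin D proteins, bound to their kinases, inactivate the retinoblastoma protein and so release E2F, a family of transcription factors that switch on cyclin E and the replication machinery. Later in the cycle a second wave of genes is transcribed, held down in resting cells by the DREAM complex at promoter elements called CHR (cell cycle genes homology region) and driven by the factors B-Myb and FoxM1. Most endothelial cells of adult vessels rest outside the cycle, while the bone marrow around them holds many dividing progenitors of red cells, granulocytes and B cells.

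Levels are given in CPM, the reads of a gene relative to the size of its library, with that size corrected for differences in RNA composition (TMM scaling). The libraries held between 47678806 and 58325745 counts, and a member held between 451 and 14119 counts in a library. Together the 44 members took 0.237%, 0.214% and 0.268% of all counts in female replicates 1 to 3 and 0.276%, 0.233% and 0.211% in male replicates 1 to 3. The highest and the lowest share thus both came from male libraries, and the sexes overlapped. The sexes were compared as males over females by the quasi-likelihood test of edgeR, and p-values were adjusted over all 19480 genes (Benjamini-Hochberg).

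The label of the cells was checked against marker genes, because the members are read in a mixture of whatever cells the enrichment kept. All 18 endothelial markers were detected, among them Cdh5 (VE-cadherin) at 15.8 to 32.6 CPM in females and 6.50 to 16.1 CPM in males, and Emcn, the gene of endomucin itself, at 5.35 to 10.5 CPM in females and 3.09 to 6.73 CPM in males. Their summed level was 391 to 572 CPM in females and 226 to 357 CPM in males, without overlap, and all 18 had a negative log2 fold change. The label names endothelial cells alone, yet genes of mature neutrophils and red cells were abundant in all 6 libraries. The sum of 11 mature neutrophil genes was 18260 to 22207 CPM in females and 31286 to 42900 CPM in males, with all 11 fold changes positive. The 14 erythroid genes in the table summed to 12464 to 17892 CPM in females and 18770 to 27596 CPM in males, 10 of 14 fold changes positive. The globin genes Hba-a1, Hba-a2, Hbb-bs and Hbb-bt carried this sum, with log2 fold changes of 0.50 to 0.57, and the other 10 genes overlapped between the sexes, among them Gata1 at -0.25 and Epor at -0.46. Macrophage genes went the other way, with 8 of 8 fold changes negative and sums of 4210 to 4496 CPM in females and 2824 to 3839 CPM in males. The 8 hematopoietic progenitor genes summed to 149 to 178 CPM in females and 138 to 141 CPM in males, again without overlap and with 7 of 8 fold changes negative. T and NK cell genes summed to 65.1 to 76.0 CPM in females and 51.5 to 59.1 CPM in males, with 3 of 6 fold changes positive and Cd4 the 1 gene without overlap, and the sums of the monocyte, plasma cell, megakaryocyte and stromal lists overlapped between the sexes. Fold changes were negative in 8 of 8 stromal, 5 of 5 megakaryocyte, 3 of 3 tested plasma cell and 4 of 6 monocyte genes. No gene of these lists passed an adjusted p of 0.05, and none of those tested was at 0 in any library. The part of this mixture in the sex differences below was not tested. In bulk RNA, fewer cells of a type and less RNA per cell cannot be told apart.

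No cell cycle gene passed the test between the sexes. Of the 44 members, 0 had an adjusted p under 0.05 with edgeR, where 8 of all 19480 genes did (0.0411%), and the lowest adjusted p of a member was 0.336, for Birc5. DESeq2's Wald test also called 0 of the 44, with a lowest adjusted p of 0.208. At an unadjusted p under 0.05, 3 members were higher in males with either tool, against 5.03% of all genes in edgeR, and 2 members were higher in females, against 4.76% of all genes. These numbers are near the background share of all genes and are no result about the members. All male libraries lay above all female libraries in 6 members, against 7.25% of all genes, and below them in 1 member, against 7.29%. Fold changes were positive in 29 members and negative in 15, with a median log2 fold change of 0.07, and over all genes tested 49.79% were positive with a median of -0.00125. With total counts in place of TMM scaling, 3 members had all males above all females (Cdc45, Kif23 and Birc5), against 5.98% of all genes under that scaling, and 2 had all males below (Ccnd1 and Ccnd2), against 8.12%.

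Single libraries decided these counts. The members higher in males at an unadjusted p under 0.05 numbered 0 without female replicate 2 (3.50% of all genes in the same fit), 1 without male replicate 2 (2.71%), 5 without female replicate 3 (3.66%) and 5 without male replicate 3 (6.40%). The members higher in females numbered 0 without female replicate 2 (4.39% of all genes), 0 without female replicate 3 (3.06%), 0 without male replicate 2 (2.13%) and 5 without male replicate 1 (4.71%). Without female replicate 2 or without male replicate 1, 18 of the 44 fold changes were positive, in place of 29. The median log2 fold change was 0.20 without female replicate 3 and -0.04 without male replicate 1. With female replicate 3 left out, 17 members had all males above all females, against 10.7% of all genes in the same 5 libraries. Members with all males below all females numbered 6 without female replicate 1 (13% of all genes), 7 without male replicate 1 (13.7%), 2 without male replicate 3 (16.7%) and 0 without male replicate 2 (9.24%).

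The fits also bound the differences. The 95% intervals of the members, on a linear scale of males over females, reached down to 0.590-fold at the lowest, for Ccnd1, and up to 1.70-fold at the highest, for Bub1. The intervals of all members but Ccnd1, Ccnd2, Birc5, Kif23 and Kif11 included a fold of 1. A p that misses the threshold does not show that the sexes were alike, and larger differences than these bounds lay outside the interval of every member.

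**Figure D1:**
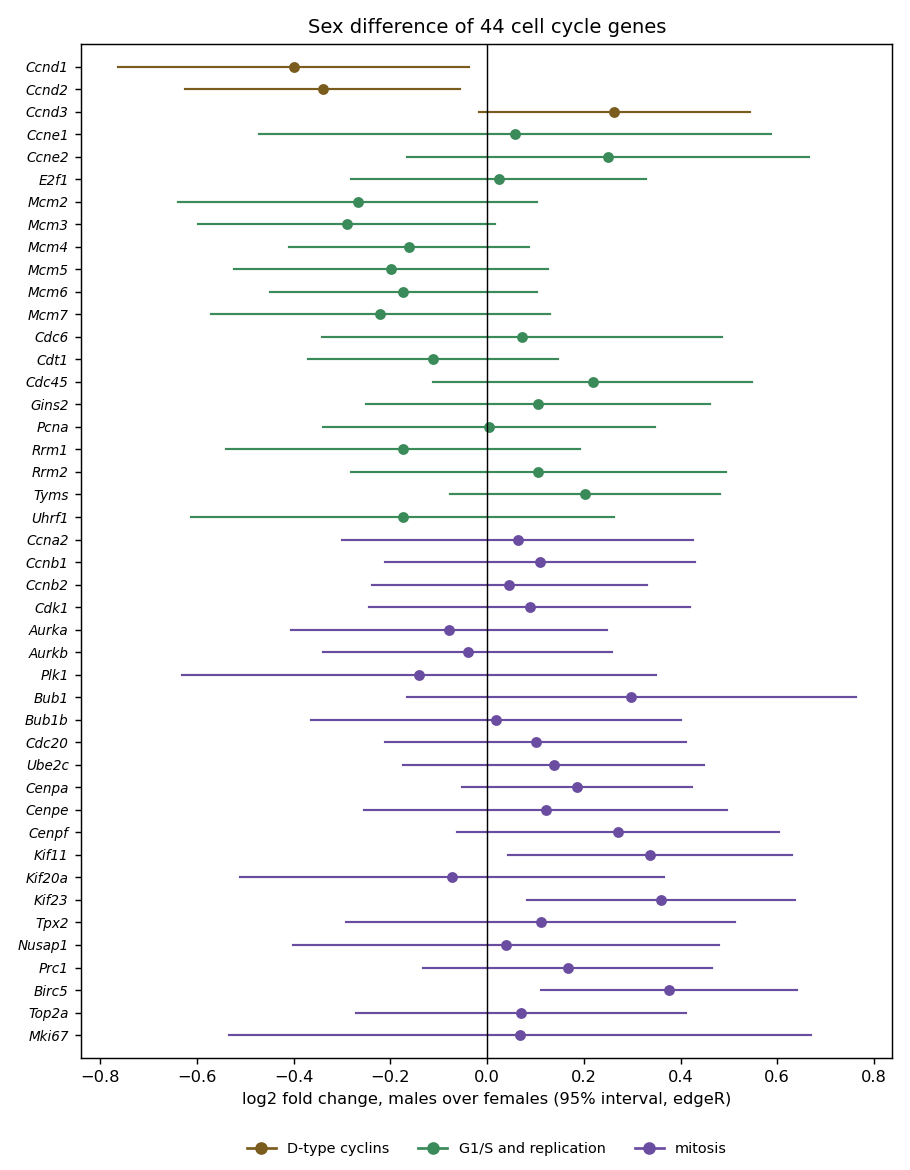
Log2 fold change of each of the 44 members, males over females, with its 95% interval from edgeR (horizontal bars), ordered by role from the D-type cyclins to Ki-67 and coloured by class. All 6 of Mcm2 to Mcm7 sit left of 0, most mitosis genes sit right of it, and the intervals are wide next to the estimates.

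The D-type cyclins respond to growth signals and start the passage through G1. Their fold changes were negative in Ccnd1 and Ccnd2 and positive in Ccnd3. None of these genes passed the test between the sexes, and a difference between the family members was not tested. Ccnd1 (cyclin D1, ENSMUSG00000070348) was at 36.3, 55.5 and 46.5 CPM in female replicates 1 to 3 and at 31.2, 34.1 and 39.6 CPM in male replicates 1 to 3. The sexes overlapped only through female replicate 1, which lay below male replicate 3. Mean levels were 46.1 ± 9.58 CPM in females and 34.9 ± 4.25 CPM in males (SD, n = 3), a log2 fold change of -0.40. Its standard error was 0.16, the unadjusted p in edgeR 0.0338 and the adjusted p 0.455. Ccnd2 (cyclin D2, ENSMUSG00000000184) was at 99.0, 128 and 120 CPM in females and at 99.0, 85.9 and 89.4 CPM in males. It was the 1 member with all males below all females, by less than 0.1 CPM between female replicate 1 and male replicate 1, and the log2 fold change was -0.34 (SE 0.13, unadjusted p in edgeR 0.0238, adjusted p 0.415). The Ccnd2 groups overlapped when DESeq2's size factors were used, so that separation rests on the scaling. Ccnd3 (cyclin D3, ENSMUSG00000034165), the D-type cyclin known for its part in blood cell development, was at 199, 199 and 213 CPM in females and at 268, 251 and 214 CPM in males. Male replicate 3 was only just above female replicate 3, and the other two males were well above it. The log2 fold change of Ccnd3 was 0.26 (SE 0.13, adjusted p in edgeR 0.533).

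The 3 D-type cyclins together were nearly level between the sexes, at 365 ± 26.7 CPM in females and 371 ± 27.7 CPM in males (SD, n = 3). The ratio of Ccnd1 to Ccnd3 overlapped between the sexes, at 0.182 in female replicate 1 and 0.185 in male replicate 3. The share of Ccnd3 did not. Ccnd3 supplied 59.5%, 52.0% and 56.1% of the D-type cyclin CPM in female replicates 1 to 3 and 67.3%, 67.7% and 62.4% in male replicates 1 to 3. Per kilobase of the canonical transcript, which removes the effect of the longer Ccnd1 and Ccnd2 transcripts, the Ccnd3 share was 76.9% ± 2.90 in females and 83.5% ± 2.04 in males (SD, n = 3). A share within a library does not move with the scaling of libraries. It was formed after the levels of the 3 genes had been seen and is given without a test. The endothelial and neutrophil marker sums differ between the same libraries, and their part in this shift was not tested.

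**Figure D2:**
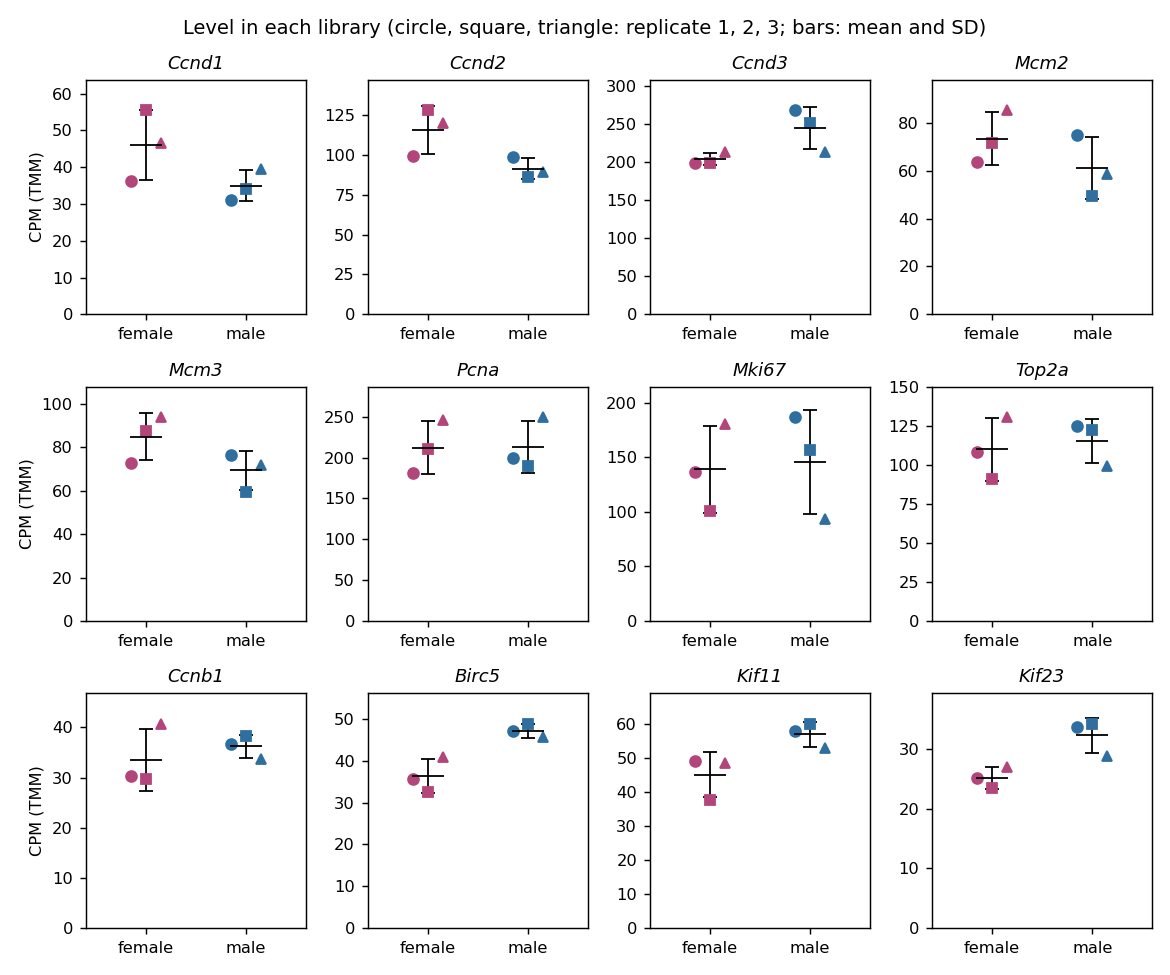
Level of 12 members in CPM (vertical axes from 0) in each library, females at left and males at right of each panel; circles, squares and triangles are replicates 1, 2 and 3, and bars give the mean and SD. Ccnd1 and Ccnd2 are mostly lower and Ccnd3, Birc5, Kif11 and Kif23 higher in males, and the sexes overlap in Mki67, Top2a, Ccnb1, Pcna, Mcm2 and Mcm3.

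Entry into S phase depends on cyclin E and on E2F1. Ccne1 (cyclin E1) was at 9.26, 12.2 and 16.8 CPM in females and at 16.4, 10.6 and 12.8 CPM in males, and Ccne2 (cyclin E2) at 11.5, 14.0 and 18.3 CPM in females and 15.6, 19.1 and 17.2 CPM in males. E2f1 varied less, at 18.5, 19.9 and 21.0 CPM in females and 21.8, 17.9 and 20.8 CPM in males. All 3 overlapped between the sexes, with log2 fold changes of 0.06 ± 0.24, 0.25 ± 0.19 and 0.02 ± 0.14 (SE). The coefficient of variation of Ccne1 was 29.8% in females and 21.9% in males, against 6.44% and 10.02% for E2f1, so the bounds on a sex difference are looser for Ccne1.

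Of the 8 genes of origin licensing, 7 had a negative and 1 a positive fold change, and 0 passed the test. Mcm2 to Mcm7 encode the 6 subunits of the MCM ring, the helicase that is loaded on origins in G1 and unwinds DNA in S phase. Mcm2 was at 63.5, 71.3 and 85.2 CPM in females and 74.9, 49.3 and 58.6 CPM in males. Mcm5 was at 73.5, 96.0 and 97.3 CPM in females and 88.1, 67.8 and 76.5 CPM in males. In both genes male replicate 1 lay above female replicate 1, so the sexes overlapped. The same held for the other subunits: all 6 had their highest level in female replicate 3 and their lowest in male replicate 2. Log2 fold changes were -0.27 for Mcm2 (SE 0.17), -0.29 for Mcm3 (SE 0.14), -0.16 for Mcm4 (SE 0.11), -0.20 for Mcm5 (SE 0.15), -0.17 for Mcm6 (SE 0.12) and -0.22 for Mcm7 (SE 0.16). The lowest unadjusted p among them was 0.0612 for Mcm3 (adjusted p in edgeR 0.530). All 6 stayed negative in each alternative run, each library left out in turn included. The 6 genes were read in the same libraries, so their common sign is not 6 separate observations.

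The loading factors of the ring were closer to 0. Cdc6, which brings MCM to the origin, had a log2 fold change of 0.07 (SE 0.19), and Cdt1, its partner, one of -0.11 (SE 0.12). At the fork, Cdc45, a subunit of the active helicase, was at 11.1, 12.5 and 13.5 CPM in females and 14.1, 14.6 and 14.4 CPM in males, all males above all females, and its log2 fold change was 0.22 (SE 0.15, adjusted p in edgeR 0.676). Gins2, of the GINS complex of the same helicase, had a log2 fold change of 0.11 (SE 0.16). Pcna, the sliding clamp of the DNA polymerases, was at 181, 211 and 245 CPM in females and 199, 190 and 249 CPM in males. Its mean levels were 212 ± 32.4 and 213 ± 31.9 CPM (SD, n = 3), the fold change nearest to 1 of the members, with a 95% interval of 0.791-fold to 1.27-fold.

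Enzymes that make deoxynucleotides were spread around 0 as well. Rrm2, the subunit of ribonucleotide reductase that accumulates in S phase, was at 73.8, 67.8 and 103 CPM in females and 104, 82.2 and 76.7 CPM in males, a log2 fold change of 0.11 (SE 0.17). Rrm1, the large subunit, had a log2 fold change of -0.17 (SE 0.17), and Tyms, which makes thymidylate, one of 0.20 (SE 0.13). Uhrf1, which carries DNA methylation over to the new strand, was at 51.7, 43.2 and 62.0 CPM in females and 60.6, 42.5 and 35.9 CPM in males. Its log2 fold change was -0.17 (SE 0.20). Of the 18 members of G1/S and replication, 9 fold changes were positive and 9 negative.

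Of the 23 mitosis genes, 19 had a positive and 4 a negative fold change, and the 3 with an unadjusted p under 0.05 belong to spindle and cytokinesis. Of all genes tested, 49.79% were positive and 5.03% were higher in males at that p. Without female replicate 2 the 23 genes had 11 positive and 12 negative fold changes and 0 at that p, and without male replicate 1 they had 12 positive and 11 negative. Birc5 (survivin, ENSMUSG00000017716), a subunit of the chromosomal passenger complex that corrects spindle attachment, was at 35.6, 32.6 and 40.8 CPM in females and 47.1, 48.8 and 45.6 CPM in males. Every male library was above every female library, and the means were 36.3 ± 4.16 and 47.2 ± 1.62 CPM (SD, n = 3). The log2 fold change was 0.38 (SE 0.12, 95% interval 0.11 to 0.64), with an unadjusted p in edgeR of 0.0100 and an adjusted p of 0.336. Kif23 (ENSMUSG00000032254), the motor of the central spindle, was at 25.1, 23.4 and 27.0 CPM in females and 33.8, 34.2 and 28.9 CPM in males. Its log2 fold change was 0.36 (SE 0.13, unadjusted p in edgeR 0.0162, adjusted p 0.379), and the sexes lay nearest in female replicate 3 and male replicate 3. Kif11 (ENSMUSG00000012443), the motor that pushes the spindle poles apart, was at 49.1, 37.4 and 48.5 CPM in females and 57.9, 59.9 and 52.8 CPM in males, a log2 fold change of 0.34 (SE 0.13, adjusted p in edgeR 0.435). The lowest level of all 3 genes was in female replicate 2.

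Mki67, the gene of the proliferation antigen Ki-67, was at 136, 101 and 180 CPM in females and 187, 157 and 93.9 CPM in males. Both the highest and the lowest library were male, and the range within either sex was far larger than the difference between them. Mean levels were 139 ± 39.9 CPM in females and 146 ± 47.4 CPM in males (SD, n = 3), a log2 fold change of 0.07 with a 95% interval of -0.53 to 0.67. This was the widest interval of the 44, and on a linear scale it runs from 0.691-fold to 1.59-fold. Top2a, the topoisomerase that untangles chromosomes before they part, was at 109, 90.9 and 131 CPM in females and 125, 122 and 99.3 CPM in males, and its log2 fold change was 0.07 (SE 0.15). As in Mki67, female replicate 2 and male replicate 3 were the lowest of their sex.

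Cyclin A2 and the B-type cyclins activate Cdk1, the kinase of mitotic entry. Ccna2 was at 54.9, 47.4 and 71.1 CPM in females and 69.3, 59.05 and 52.8 CPM in males, and Ccnb1 at 30.3, 29.8 and 40.7 CPM in females and 36.7, 38.2 and 33.7 CPM in males. Cdk1 was at 24.8, 29.1 and 35.2 CPM in females and 30.3, 29.3 and 35.0 CPM in males. Female replicate 3 was the highest library for each of these 3 genes and for Ccnb2. The log2 fold changes of the 4 genes lay between 0.05 for Ccnb2 and 0.11 for Ccnb1, below their standard errors of 0.13 to 0.16.

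The kinases and checkpoint proteins that guide chromosomes were mixed in sign. Plk1, a kinase of centrosomes and cytokinesis, was at 17.7, 20.1 and 32.5 CPM in females and 24.9, 19.4 and 19.5 CPM in males, and its log2 fold change of -0.14 (SE 0.22) turned to 0.17 without female replicate 3. Aurka and Aurkb, the Aurora kinases of spindle poles and of the passenger complex, had log2 fold changes of -0.08 and -0.04. Bub1 and Bub1b, which delay anaphase until every chromosome is attached, had log2 fold changes of 0.30 (SE 0.21) and 0.02 (SE 0.17). Cdc20, the activator of the anaphase-promoting complex, was at 30.6, 25.7 and 35.6 CPM in females and 35.0, 30.8 and 32.6 CPM in males. The log2 fold change was 0.10 for Cdc20 and 0.14 for Ube2c, which adds ubiquitin for the same complex.

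Among the centromere genes, Cenpa, the histone variant that marks the centromere, was at 60.8, 57.5 and 62.4 CPM in females and 66.5, 73.4 and 65.7 CPM in males. All males were above all females, yet the log2 fold change was only 0.19 (SE 0.11, adjusted p in edgeR 0.609). Cenpf and Cenpe, which bind spindle microtubules at the kinetochore, had log2 fold changes of 0.27 (SE 0.15) and 0.12 (SE 0.17). The remaining spindle genes were Prc1, which bundles midzone microtubules, at 0.17, Tpx2, a spindle assembly factor, at 0.11, Nusap1, a microtubule binder, at 0.04 and Kif20a, a midzone motor, at -0.07 on the log2 scale.

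Libraries of the same sex differed from each other, and these differences ran across roles. Female replicate 3 had the highest level of 23 of the 44 members, 11 of 18 in G1/S and replication and 12 of 23 in mitosis, and male replicate 1 lay above the member's mean in 38 of 44. Female replicate 2 had the lowest level of 21 members, 16 of them mitosis genes. Male replicate 2 was the lowest library for 9 of the 18 replication genes and for 0 of the 23 mitosis genes, where it lay above the mean in 16. The median log2 level over the members' means was 0.22 in female replicate 3, 0.15 in male replicate 1 and -0.16 in female replicate 2.

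**Figure D3:**
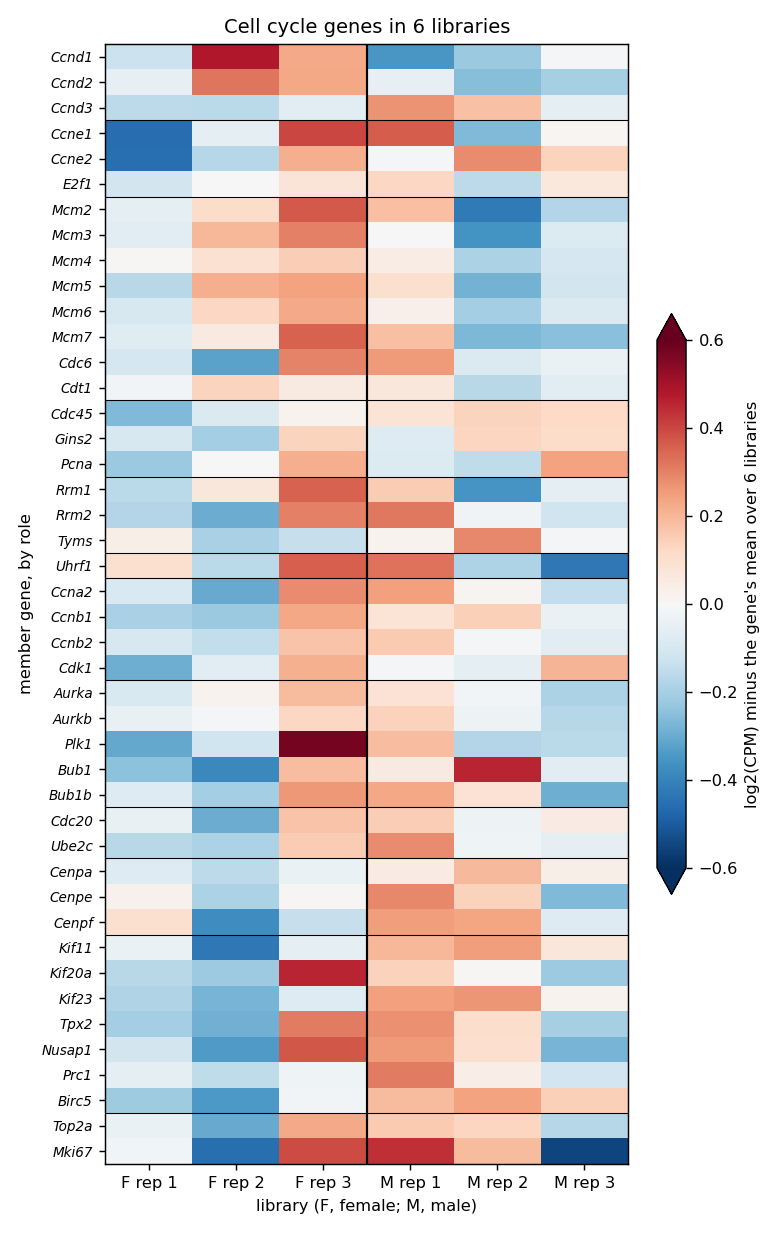
Log2 CPM of each member in each library minus the member's mean over the 6 libraries (colour, from -0.6 in blue to 0.6 in red, values beyond at the end colour), with rows by role and the sexes divided by the vertical line. Female replicate 3 and male replicate 1 are red in most rows, and male replicate 2 is blue in the Mcm rows and red or pale in most mitosis rows.

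Sums of the neutrophil progenitor and B progenitor marker lists overlapped between the sexes, while some of their genes did not. The neutrophil progenitor genes summed to 535, 634 and 1073 CPM in females and 499, 778 and 907 CPM in males, and the 9 B progenitor genes in the table to 2579, 2538 and 2216 CPM in females and 2699, 2318 and 2511 CPM in males. The B progenitor list also holds Cd79a and Cd79b, which mature B cells express too, at 890 and 1043 CPM in female replicate 1. Fold changes were positive in 6 of 8 neutrophil progenitor and 7 of 9 B progenitor genes. All males were above all females in Cebpe, Fcnb and Gfi1 of the first list, with log2 fold changes of 0.38, 0.47 and 0.47, and in Pax5 of the second, with 0.37. The share of the members' RNA that came from any of these cells was not tested.

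Levels of the helicase subunits were also set against those of the mitosis genes. Mcm2 to Mcm7 summed to 433, 503 and 554 CPM in females and 487, 376 and 417 CPM in males, and the 23 mitosis genes to 882, 779 and 1073 CPM in females and 1097, 1018 and 856 CPM in males. Each sum overlapped between the sexes. Their ratio was 0.491, 0.646 and 0.516 in female replicates 1 to 3 and 0.445, 0.369 and 0.487 in male replicates 1 to 3, which do not overlap, although male replicate 3 is only just below female replicate 1. The means were 0.551 ± 0.0829 in females and 0.434 ± 0.0597 in males (SD, n = 3). This ratio does not depend on the scaling of libraries, was formed after the levels had been seen, and is a description without a test. With all 18 G1/S and replication members in place of Mcm2 to Mcm7, the ratio was 1.12, 1.39 and 1.18 in females and 1.04, 0.928 and 1.22 in males, and the sexes overlapped.

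**Figure D4:**
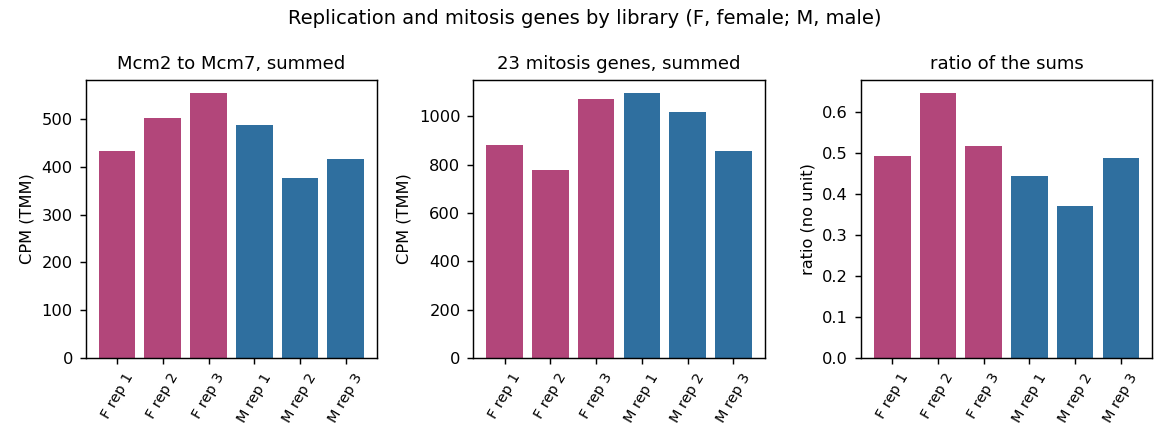
Summed CPM of Mcm2 to Mcm7 (left), summed CPM of the 23 mitosis genes (middle) and the ratio of these sums (right) in each library, all axes from 0. The sums overlap between the sexes, while the ratio is 0.491 to 0.646 in the females and 0.369 to 0.487 in the males.

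Levels of different genes are compared here per kilobase of the canonical transcript, since long transcripts give more reads. Pcna was highest, at 140 CPM per kb over the 6 libraries, followed by Ccnd3 at 111, Ube2c at 54.7, Cenpa at 43.9, Birc5 at 42.6 and Rrm2 at 32.2 CPM per kb. The helicase subunits lay between 11.8 CPM per kb for Mcm4 and 29.5 for Mcm7. Ccnd2 and Ccnd1 were at 16.4 and 10.7 CPM per kb, below Ccnd3 in each of the 6 libraries. Mki67, at 13.9 CPM per kb, was in the middle because its transcript is long, and Cenpe was lowest at 2.19 CPM per kb.

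The division into replication and mitosis genes has a counterpart in promoter sequence, which the choice of members did not use. Promoters from 250 bases before to 50 bases after the gene start were taken from RefSeq (mouse build GRCm38.p6), where 35 of the 44 members were matched, 19 of mitosis, 15 of replication and Ccnd3. Members not matched in the promoter set used here were Ccnd1, Ccnd2, Ccne2, Mcm4, Gins2, Ccna2, Aurkb, Kif20a and Tpx2. Both strands were searched for the CHR letters TTTGAA, for the CCAAT box (CCAAT), which binds the factor NF-Y, and for E2F letters (TTTGGCGC, TTTCCCGC, TTTGGCGG or TTTCCCGG), none of which contains another of the 3 motifs.

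A member was counted if any of its promoters held the motif, while the share of all is over single promoters. Members with more than 1 promoter thus had more chances. The CHR letters were found in 14 of 19 mitosis members (73.7%), in 2 of 15 replication members (13.3%) and in 17.9% of all 32851 promoters of the table. CCAAT was found in 17 of 19 (89.5%) and 10 of 15 (66.7%), against 37.4% of all. The E2F letters were in 1 of 19 mitosis members (5.26%), Birc5, and in 6 of 15 replication members (40%), against 3.32% of all. Ccnd3 held CCAAT alone. A match of letters is no bound factor, and a missing match says only that these letters are not in the window. Kif11 and Kif23 hold the CHR letters, as do Mki67 and Cdc20, while Birc5 does not.

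**Figure D5:**
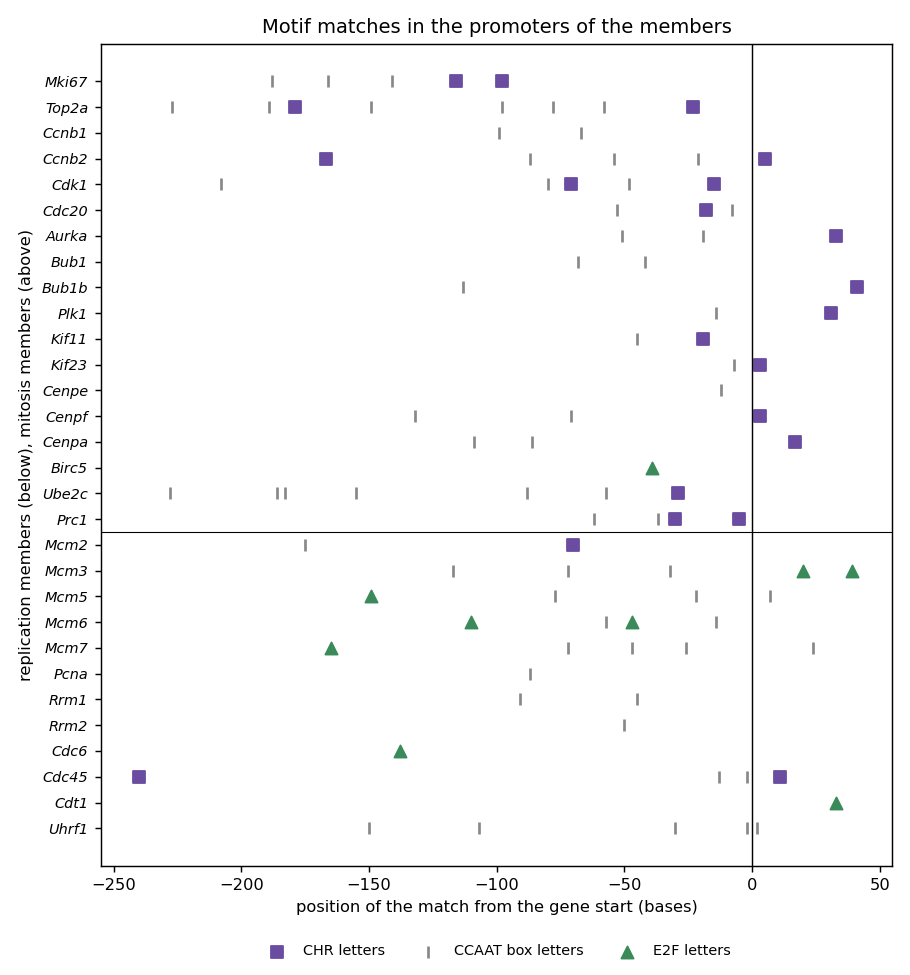
Positions of motif matches relative to the gene start (horizontal axis in bases, 0 at the start) in the promoters of the members with at least 1 match, mitosis genes above and replication genes below the horizontal line. CHR matches (purple squares) are in 14 mitosis and 2 replication members, and E2F matches (green triangles) in 6 replication members and in Birc5.

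The 150 bases before the start are shown for members that hold the motif of their class there, because they let a reader see the element in its setting. They are written 5′ to 3′ on the strand of the gene, and capitals mark the motif in either orientation. The first 4 are mitosis promoters with capitals on the CHR letters: Mki67 (chr7:135716380-135716529, minus strand), Top2a (chr11:99024190-99024339, minus), Cdk1 (chr10:69352913-69353062, minus) and Cdc20 (chr4:118437344-118437493, minus).
Mki67: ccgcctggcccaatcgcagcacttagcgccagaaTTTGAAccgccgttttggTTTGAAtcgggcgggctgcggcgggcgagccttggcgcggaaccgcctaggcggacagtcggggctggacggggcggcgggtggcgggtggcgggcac
Top2a: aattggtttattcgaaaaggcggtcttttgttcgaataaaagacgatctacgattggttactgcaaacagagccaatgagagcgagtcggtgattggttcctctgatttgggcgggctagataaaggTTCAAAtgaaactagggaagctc
Cdk1: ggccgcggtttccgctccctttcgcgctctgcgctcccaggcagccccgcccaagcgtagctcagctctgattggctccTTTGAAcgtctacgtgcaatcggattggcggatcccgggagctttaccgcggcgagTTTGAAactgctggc
Cdc20: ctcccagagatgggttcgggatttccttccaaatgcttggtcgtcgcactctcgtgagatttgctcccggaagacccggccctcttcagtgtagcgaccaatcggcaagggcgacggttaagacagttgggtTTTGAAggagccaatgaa

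The last 3 are replication promoters with capitals on the E2F letters: Mcm5 (chr8:75109359-75109508, plus strand), Mcm6 (chr1:128359706-128359855, minus) and Cdc6 (chr11:98908001-98908150, plus).
Mcm5: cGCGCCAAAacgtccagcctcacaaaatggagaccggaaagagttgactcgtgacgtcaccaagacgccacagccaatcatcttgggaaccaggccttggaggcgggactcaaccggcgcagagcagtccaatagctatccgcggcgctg
Mcm6: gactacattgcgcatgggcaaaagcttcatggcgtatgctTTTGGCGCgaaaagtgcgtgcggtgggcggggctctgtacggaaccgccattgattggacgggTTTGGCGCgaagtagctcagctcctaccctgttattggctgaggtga
Cdc6: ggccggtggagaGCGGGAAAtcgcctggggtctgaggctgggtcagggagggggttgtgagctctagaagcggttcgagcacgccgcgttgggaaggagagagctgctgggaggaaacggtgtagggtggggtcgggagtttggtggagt

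Cdk1, Mki67 and Mcm6 carry their motif at 2 places in these windows, and CHR letters begin at position -18 in Cdc20 and -15 in Cdk1, counted from the start. No member shown here passed the test between the sexes.

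Other genes of the same machinery were examined by lists of names. Of 40 further replication genes, all tested, 0 passed an adjusted p of 0.05 in edgeR. At an unadjusted p under 0.05, 2 were higher in males, against 5.03% of all genes, and 0 in females, against 4.76%, near the background. The 3 with the smallest p were Dbf4, the activator of the origin-firing kinase, at 0.36 (SE 0.13), Tipin, of the fork protection complex, at 0.31 (SE 0.11), and Orc2, of the origin recognition complex, at -0.26 (SE 0.13), all log2 fold changes. Their median log2 fold change was 0.02, with 23 positive and 17 negative.

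Of 40 further mitosis genes, 0 passed an adjusted p of 0.05 in edgeR. At an unadjusted p under 0.05, 1 was higher in males, against 5.03% of all genes, and 0 in females, against 4.76%. These counts are no result about the list. The gene higher in males was Cks2, a small partner of Cdk1, at 35.3, 30.5 and 37.9 CPM in females and 41.4, 51.4 and 53.6 CPM in males. All males were above all females, and the log2 fold change was 0.50 (SE 0.14, adjusted p in edgeR 0.259). Smc2, of condensin, and Cdca3, a trigger of mitotic entry, followed at 0.25 and 0.24. The list had 31 positive and 9 negative fold changes with a median of 0.13, where 49.79% of all genes tested were positive. It was read in the same libraries as the mitosis members, whose sign count changed without female replicate 2 or male replicate 1.

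The last list holds genes of G1 and of exit from the cycle. Of the 28 tested, 0 passed an adjusted p of 0.05 in edgeR. At an unadjusted p under 0.05, 1 was higher in males and 1 in females, near the background of 5.03% and 4.76% of all genes. Cdkn1c (p57, an inhibitor of cyclin-dependent kinases that is known from quiescent cells) was at 10.1, 5.90 and 16.6 CPM in females and 4.52, 3.31 and 8.16 CPM in males, a log2 fold change of -1.03 (SE 0.41, adjusted p in edgeR 0.450). The sexes overlapped through female replicate 2 and male replicate 3. Cdkn1c was lowest of each sex in female replicate 2 and male replicate 2, as were the endothelial, stromal and megakaryocyte sums. E2f2, a transcription factor abundant in red cell precursors, was at 141, 119 and 141 CPM in females and 199, 181 and 137 CPM in males, a log2 fold change of 0.37 (SE 0.15, adjusted p in edgeR 0.466). Ccng2, an atypical cyclin of cells leaving the cycle, followed at 0.24 (SE 0.12). The part of the marrow and endothelial mixture in these values was not tested.

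Some members share sequence with other genes. Exons of 17 members overlap those of another gene in the table, nearly all on the opposite strand, and whether reads were counted by strand is not given in the sources used here. Among these are Ccnd1, Ccnd3, Mcm7, Pcna and Cdk1. Ccnb1, Ccnb2, Ccnd3, Pcna and Tyms also have processed pseudogenes named after them, to which reads could be lost or from which they could be gained.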

How the data were processed

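RNA was measured in 6 libraries labelled as BECs of 12-week-old mice, 3 female and 3 male, each mapped to its group by its label. The authors deposited raw integer counts for each gene and library, without scaling or pooling. The submitters' processing notes name TopHat2 2.0.11, featureCounts, mm9 and NCBIM37, while the paper names STAR on GRCm39. The 2 sources also differ on kit, instrument and read length. The build was therefore not settled and no gene coordinates are printed. Only the promoter windows carry positions, of GRCm38.p6. Symbols, canonical transcript lengths and biotypes came from GENCODE M39, which matched 31073 of 37991 identifiers (96.19% of counts). Counts depend on the annotation release and on strand handling, which were not tested.

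Males were compared with females in edgeR 4.0.16 (R 4.3.3) by its quasi-likelihood test (robust, TMM, filterByExpr by sex), and p-values of the 19480 genes were adjusted by Benjamini-Hochberg. Standard errors were derived from the fold change and its F statistic. Depth was 47678806 to 58325745 counts, and a floor of 3 counts equals 0.0514 to 0.0629 CPM, for counting error only, as amplified copies of a molecule cannot be recognised. The fits were tested on simulated data. Alternatives were other scalings and filters, protein-coding genes alone, fits without robust estimation, DESeq2 1.42.0, the replicate number as a block, and each library left out.

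The members, gene lists and tests were chosen with earlier results of these data known. Levels per library are given for members with an unadjusted p under 0.05 and for 17 members named by the rule whatever their values. Cdc45, Uhrf1 and Cenpa are given per library outside it. Of each list of other cell cycle genes, the 3 with the smallest unadjusted p are named. Emcn, Cd4, Cebpe, Fcnb, Gfi1, Pax5, Gata1, Epor, Cd79a, Cd79b, Hba-a2 and Hbb-bt are named outside the rule. Cdkn2d and Lin54 were not matched to an identifier in the table. Promoters were printed for the first members in list order, at most 4 per class, with their motif in the printed 150 bases. Bases after the start are not printed.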

Additional observations from a re-analysis of the deposited data

How the results depend on the processing

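In each of the alternatives run, 0 of the 44 members passed an adjusted p of 0.05, and 26 members kept the sign of their fold change. The lowest adjusted p of a member lay between 0.131 (replicate block) and 0.993 (without male replicate 2). DESeq2's Wald test called 354 of all genes, the fit on protein-coding genes alone 78, the fit with no filter on low counts 98 and the fit without male replicate 3 96, against 8. The cause was not tested.

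With total counts alone, 3 members had all males above all females (5.98% of all genes) and 2 all males below (8.12%). The latter number was 0 with DESeq2's size factors (6.79% of all genes), with genes over 1% of the counts left out (6.80%), with protein-coding genes alone (7.93%) and with DESeq2's Wald test (5.58%). The log2 fold change of Pcna was -0.0074 with total counts alone and -0.00055 with no filter. The correlation of deviations between libraries of equal replicate number was 0.25, 0.061 and 0.36 for numbers 1 to 3. Each was the highest for its female replicate. Male replicate 2 was closest to female replicate 1, at 0.16, so pairing by replicate number was not settled. With that number as a replicate block, 428 of all genes were called and 0 members, with 3 members higher in males and 3 higher in females at an unadjusted p under 0.05 (6.96% and 7.17% of all genes) and a median log2 fold change of 0.07.

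Leaving out each library in turn gave 0 to 5 members at an unadjusted p under 0.05 higher in males and 0 to 5 higher in females, 5 to 17 with all males above all females and 0 to 7 with all males below. Over the same fits the shares of all genes were 2.71% to 6.96% and 2.13% to 7.78% at that p and 8.93% to 15.2% and 9.24% to 16.7% without overlap. The members had a median log2 fold change from -0.037 to 0.198. The log2 fold changes that changed sign ranged from -0.125 to 0.304 in Ccne1, -0.037 to 0.104 in E2f1, -0.058 to 0.258 in Cdc6, -0.127 to 0.121 in Pcna, -0.037 to 0.306 in Rrm2, -0.062 to 0.238 in Ccna2, -0.024 to 0.148 in Ccnb2, -0.019 to 0.227 in Cdk1 and -0.125 to 0.031 in Aurkb. In the others they ranged from -0.301 to 0.168 in Plk1, -0.099 to 0.162 in Bub1b, -0.011 to 0.221 in Cdc20, -0.0032 to 0.262 in Cenpe, -0.192 to 0.175 in Kif20a, -0.0039 to 0.319 in Tpx2, -0.108 to 0.263 in Nusap1, -0.052 to 0.210 in Top2a and -0.151 to 0.303 in Mki67. Each member held at least 451 counts in each library, and what limits these values was not tested.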
